A study of Mus musculus with 12 samples.

Results

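RNA levels of 10 genes that build triglyceride or release it on a hormonal signal were followed in mouse fat grafts: Gpd1, Gpam, Agpat2, Lpin1, Dgat1 and Dgat2 on the synthesis side, and Adrb3, Lipe, Mgll and Pde3b on the lipolysis side. The genes were taken by symbol, and all 10 were found among the 19547 genes of the deposited table and passed the filter on low counts, which left 18551 genes. The study set 3 groups of 4 libraries each beside one another, all from adipose tissue of wild-type C57BL/6 mice labelled 16 weeks of age, with grafts profiled at 8 weeks. CAL_Dll4i grafts (cell-assisted lipotransfer with Dll4 inhibition) carried added ASC (in this field, stem or stromal cells from adipose tissue) and had Dll4, a Notch ligand, inhibited. CAL grafts carried added ASC alone, and control grafts had no added ASC. How Dll4 was inhibited, how many ASC were added, the sex of the mice and whether each library came from its own animal are not stated in the labels, so the p-values speak of the spread among these libraries alone, which may be technical.

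Fat cells store fatty acids as triglyceride. Gpd1 supplies glycerol 3-phosphate, Gpam and Agpat2 attach the first acyl chains, Lpin1 removes the phosphate, and Dgat1 and Dgat2 attach the last chain. Catecholamines act on the β3-adrenergic receptor (Adrb3) to raise cyclic AMP, which through protein kinase A activates hormone-sensitive lipase (Lipe), monoacylglycerol lipase (Mgll) cleaves the last chain, and insulin restrains the pathway in part through the cyclic AMP phosphodiesterase Pde3b.

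The depth was high and the libraries were alike over all genes. Libraries held 55883051 (CAL replicate 1) to 70804141 counts (CAL_Dll4i replicate 4), and single members had from 194 counts (Adrb3 in control replicate 4) to 15398 (Lipe in CAL replicate 4). Dll4 itself stood at 4.42 ± 0.399 CPM in CAL_Dll4i, 3.72 ± 0.536 in CAL and 5.78 ± 0.836 in control (mean ± SD, n = 4 each), where CPM is the count scaled to a common library size after TMM normalisation. A lower RNA level is not required of an inhibitor, so these values check no label. Skeletal muscle RNA was present in 3 libraries, with Acta1 (skeletal muscle actin) at 127 CPM in CAL_Dll4i replicate 3, and 28.1 and 74.5 CPM in CAL replicates 1 and 2; the other 9 had at most 2.91.

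The tissue label was checked against markers, whose sums depend on the genes listed and do not rank cell types by amount. All 12 adipocyte markers were detected, but their summed level (1252 to 1710 CPM in CAL_Dll4i, 1714 to 2511 in CAL and 705 to 1644 in control) lay below that of 10 macrophage markers (5206 to 6117, 5078 to 5921 and 5015 to 5688 CPM in the same order) in every library. The 8 stromal markers summed to 6400 to 7294 CPM in CAL_Dll4i, 5170 to 6631 in CAL and 5194 to 6715 in control, and the 8 endothelial markers to 308 to 367, 249 to 405 and 329 to 412 CPM. Of 7 brown adipocyte markers 5 were measured, and they summed to 2.27 to 19.4 CPM over the 12 libraries. Markers of keratinocytes, a skin cell, summed to 2.12 to 469 CPM in CAL_Dll4i, 4.08 to 75.0 in CAL and 3.72 to 243 in control (4 of 6 markers measured).

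The 10 genes lie on chromosomes 19 (Gpam), 2 (Agpat2), 12 (Lpin1), 15 (Dgat1 and Gpd1), 7 (Dgat2, Lipe and Pde3b), 6 (Mgll) and 8 (Adrb3) of the RefSeq annotation of GRCm38.p6, the assembly that mm10 stands for. Start-site windows of 300 bases (250 before and 50 after each annotated start) were found for 5 of the 10, namely Gpam, Agpat2, Lpin1, Lipe and Mgll, with 8 windows in all. The genes Lpin1, Lipe and Mgll, are shown because they had the smallest p-values among the 10 in CAL_Dll4i against CAL and were also among those with an unadjusted p under 0.05 in CAL against control. For Lipe and Mgll the window with a CACGTG match is printed out of 2. Capitals mark matches, on either strand, to AGGTCA (the core of several nuclear receptor sites), CACGTG (an E-box) or GGGCGG (a GC box, CCGCCC on the other strand), and copies of the GC box can overlap. The sequences run 5′ to 3′ on the strand of the gene, from RefSeq on GRCm38.p6.
Lpin1, minus strand, chr12:16610917-16611216: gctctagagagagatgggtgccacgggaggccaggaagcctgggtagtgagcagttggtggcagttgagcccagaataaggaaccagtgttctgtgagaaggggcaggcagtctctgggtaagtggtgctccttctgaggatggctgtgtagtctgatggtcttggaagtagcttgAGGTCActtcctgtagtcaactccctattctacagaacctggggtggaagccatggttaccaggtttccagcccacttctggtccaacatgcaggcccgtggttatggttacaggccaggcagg
Lipe, minus strand, chr7:25395938-25396237: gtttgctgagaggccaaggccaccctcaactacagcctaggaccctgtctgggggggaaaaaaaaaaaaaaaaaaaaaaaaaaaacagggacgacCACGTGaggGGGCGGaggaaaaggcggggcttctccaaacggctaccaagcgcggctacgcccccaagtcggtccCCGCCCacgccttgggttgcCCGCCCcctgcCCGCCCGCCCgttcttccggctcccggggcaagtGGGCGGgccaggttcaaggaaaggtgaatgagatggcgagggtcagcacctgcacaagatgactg
Mgll, plus strand, chr6:88724162-88724461: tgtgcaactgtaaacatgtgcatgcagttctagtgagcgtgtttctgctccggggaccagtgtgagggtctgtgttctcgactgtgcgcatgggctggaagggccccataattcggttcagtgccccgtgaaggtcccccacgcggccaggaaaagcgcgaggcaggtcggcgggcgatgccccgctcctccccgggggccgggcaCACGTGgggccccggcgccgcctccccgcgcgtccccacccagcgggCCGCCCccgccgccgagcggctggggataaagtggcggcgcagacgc

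The Lpin1 window holds AGGTCA beginning 74 bases before the start site, and none of the other motifs searched. In the Lipe window CACGTG begins 155 bases before the start site and 6 GC boxes follow it. The Mgll window has CACGTG 44 bases before its start site and 1 GC box. Over the 8 windows, 5 hold GGGCGG, 2 CACGTG, 2 AGGTCA (Gpam and Lpin1) and 1 CCAAT, against 35.7%, 7.15%, 16.3% and 37.4% of all 32851 windows of the same length. TATAAA (13.6% of all windows), the cyclic AMP response element TGACGTCA (1.79%) and the direct repeat of AGGTCA with 1 base between its copies (0.0396%), which contains AGGTCA itself, matched 0 of the 8. A match is a description of the letters and not of binding.

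Per length of transcript, in the deposited TPM averaged over the 12 libraries, Lipe was the most abundant of the 10 at 104 TPM, followed by Dgat2 at 73.2, Dgat1 at 72.2, Pde3b at 63.8, Mgll at 50.3 and Gpd1 at 49.6. Agpat2 and Lpin1 stood at 45.0 each, Gpam at 20.4 and Adrb3 at 10.8. The ranges over libraries of neighbours in this order overlapped, except that Lpin1 (33.6 to 68.0 TPM) lay above Gpam (14.6 to 30.6). Dgat2 alone ran from 14.5 to 154 TPM, and Adrb3 from 2.17 to 28.0.

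In CPM, the mean of CAL was the highest of the 3 groups for all 10 genes. The lowest mean was that of control for 7 of them and that of CAL_Dll4i for Agpat2, Dgat1 and Gpd1. A pair of libraries marked the ends: CAL replicate 4 had the highest CPM of all 12 for each of the 10 genes, and control replicate 4 the lowest for 8 (Gpam was lowest in control replicate 2 and Dgat1 in CAL_Dll4i replicate 4). The sum of the adipocyte markers had the same ends, at 2511 CPM in CAL replicate 4 and 705 in control replicate 4. Whether adipocyte content set the levels of the 10 genes was not tested, and in bulk tissue fewer adipocytes cannot be told apart from less RNA per adipocyte.

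**Figure D1:**
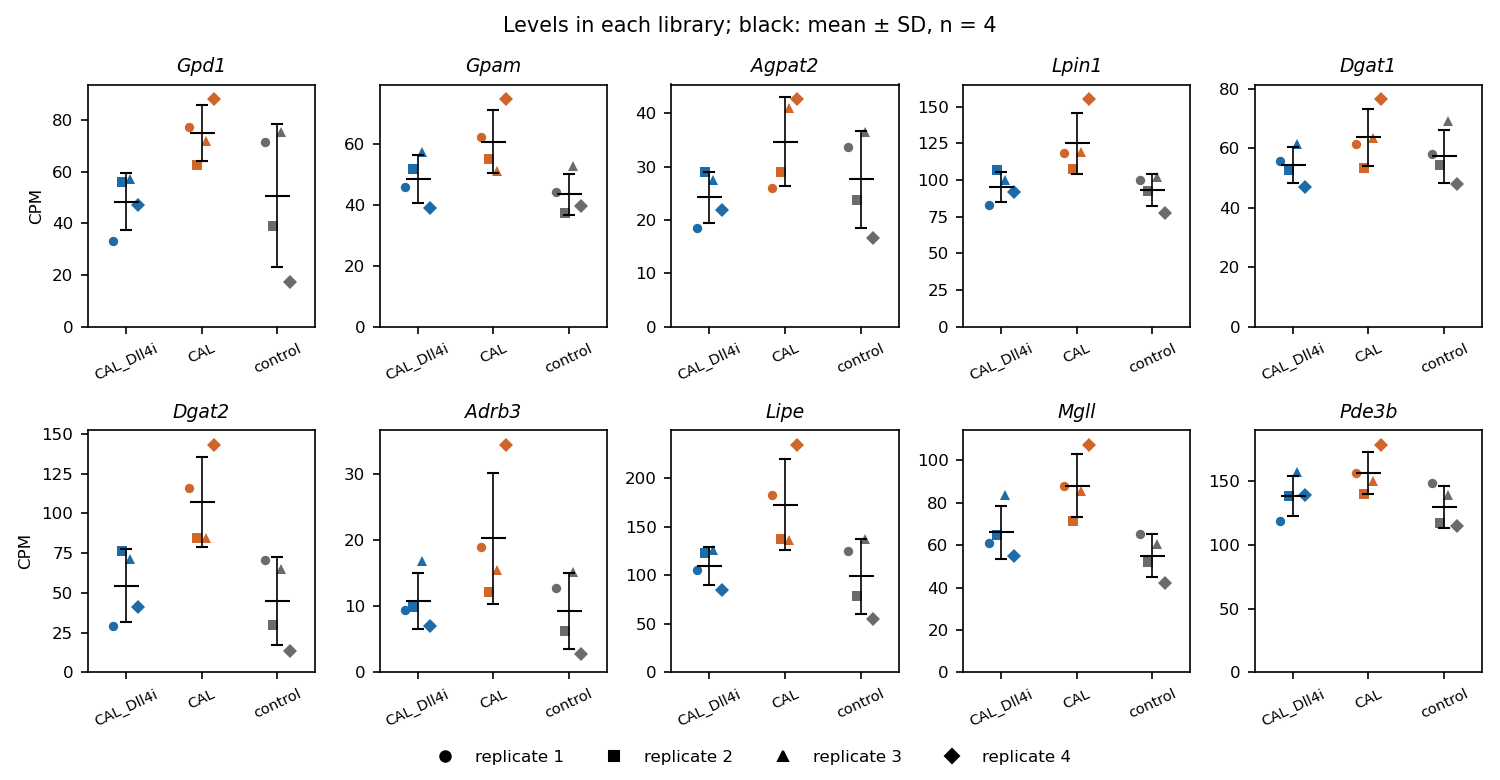
Level (CPM, vertical axis from 0) of each of the 10 genes in the 12 libraries, by group; each symbol is a library, its shape the replicate number, and black marks show the mean ± SD (n = 4). CAL replicate 4 is the highest point in each panel, and control replicate 4 the lowest in 8 of 10.

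CAL against control asks how RNA levels differ in grafts that received ASC. All 10 genes had higher estimates in CAL, with a median log2 fold change of 0.52 against -0.01 for all 18551 genes, where 48.4% of genes had a higher estimate. None of the 10 passed the quasi-likelihood test of edgeR with p-values adjusted over all genes by Benjamini-Hochberg, given below as the edgeR adjusted p (0.00539% of all genes did, and the smallest adjusted p among the 10 was 0.166 for Mgll). At an unadjusted p under 0.05, 6 were higher (Gpam, Lpin1, Dgat2, Lipe, Mgll and Pde3b) and 0 lower, beside 7.01% of all genes higher and 7.57% lower. By CPM the libraries of CAL lay above all controls for 3 of the 10 (Lpin1, Dgat2 and Mgll), and below them for 0, beside 3.61% and 3.75% of all genes. DESeq2 called Lpin1 and Mgll higher, with 2.07% of the genes it tested called higher and 1.68% called lower, while voom (with sample weights) called 0 of the 10 (0.372% of all genes higher and 0.102% lower).

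The effect of inhibiting Dll4 in grafts with ASC is addressed by CAL_Dll4i against CAL, which uses the same CAL libraries, so its differences are not independent of those above. All 10 genes had lower estimates in CAL_Dll4i, with a median of -0.47 against 0.0039 for all genes, where 48.7% had a lower estimate. The quasi-likelihood test of edgeR called 0 of the 10 and 0% of all genes (smallest Benjamini-Hochberg adjusted p 0.659). At an unadjusted p under 0.05, 3 were lower (Lpin1, Lipe and Mgll) and 0 higher, beside 2.95% of all genes lower and 4.47% higher. CPM of CAL_Dll4i lay below all CAL libraries for 4 (Lpin1, Dgat2, Gpd1 and Lipe) and above them for 0, beside 1.76% and 1.58% of all genes. DESeq2 and voom called 0 of the 10 (0.00512% and 0% of genes lower).

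Between CAL_Dll4i and control, grafts with both treatments set against grafts with neither, 7 of the 10 estimates were higher and 3 lower (Agpat2, Dgat1 and Gpd1, of which Gpd1 was higher by voom and with the replicate number as a block). The median was 0.12, and 49.6% of all genes had a higher and 50.4% a lower estimate. By the same edgeR test 0 of the 10 and 0% of all genes were called (smallest Benjamini-Hochberg adjusted p 0.754). At an unadjusted p under 0.05 there were 0 of the 10, beside 3.86% of all genes higher and 3.06% lower, and the groups overlapped for all 10 (2.41% and 2.35% of all genes did not overlap, higher and lower). DESeq2 called 0 of the 10 (0.267% of its genes higher, 0.0586% lower), as did voom (0%). Without control replicate 4 the median was -0.05.

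**Figure D2:**
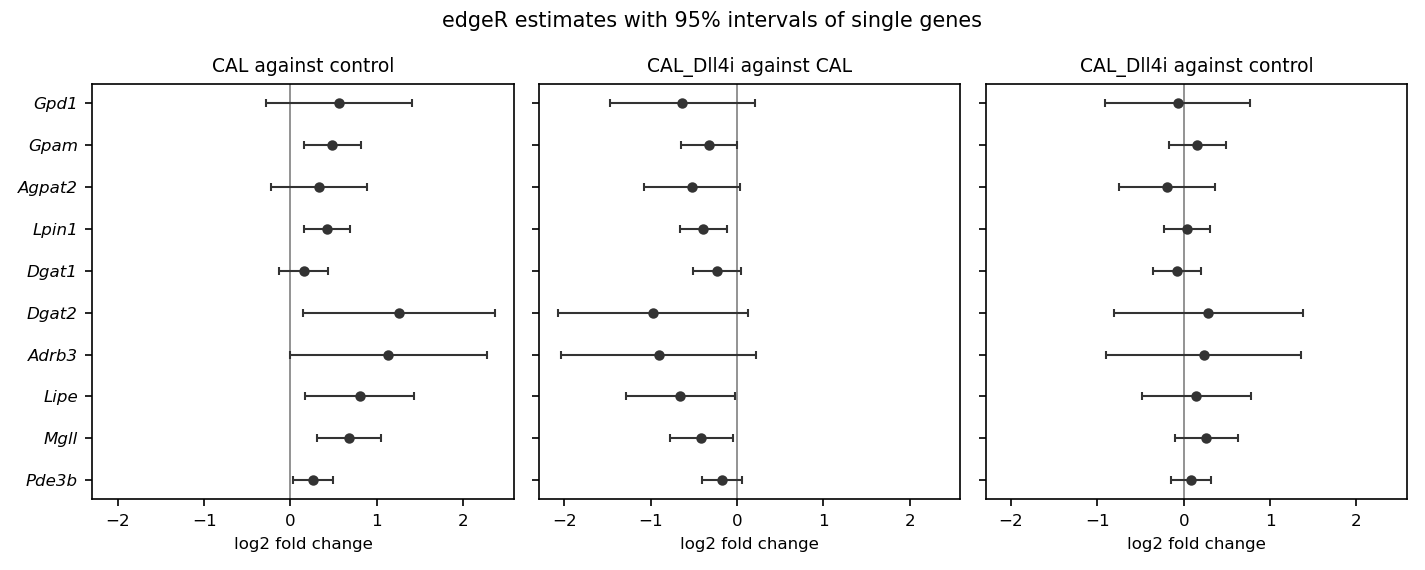
Log2 fold change (horizontal axis, point) with its 95% interval (bar) for the 10 genes in the 3 comparisons, from the edgeR fit over all libraries; the intervals are those of single genes, not adjusted for the number tested. All points lie above 0 for CAL against control and below 0 for CAL_Dll4i against CAL, and the widest intervals are those of Adrb3 and Dgat2.

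Dgat2 and Dgat1 encode unrelated enzymes for the same last step, and their levels differed in size of spread. Dgat2 had 29.4, 76.6, 71.4 and 40.8 CPM in CAL_Dll4i replicates 1 to 4, 116, 84.7, 84.4 and 143 in CAL, and 70.4, 29.8, 65.3 and 13.6 in control. All 4 CAL libraries lay above all others, and within both other groups 2 libraries were high and 2 low. The estimate for CAL against control was 2.39-fold (95% interval 1.11 to 5.15; log2 1.26 ± 0.50 SE; edgeR adjusted p = 0.295), and that for CAL_Dll4i against CAL 0.510-fold (0.238 to 1.09; log2 -0.97; edgeR adjusted p = 0.688). Dgat1 had 55.8, 52.9, 61.6 and 46.9 CPM in CAL_Dll4i, 61.4, 53.5, 63.5 and 76.7 in CAL, and 58.1, 54.3, 69.0 and 47.9 in control, so that all 3 groups overlapped. Its estimates were 1.11-fold (0.915 to 1.35; edgeR adjusted p = 0.614) for CAL against control and 0.852-fold (0.701 to 1.04; edgeR adjusted p = 0.716) for CAL_Dll4i against CAL.

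Lpin1, the phosphatidate phosphatase whose product the Dgat enzymes use, had a narrow spread. It stood at 83.2, 107, 99.7 and 92.0 CPM in CAL_Dll4i, 118, 107, 119 and 155 in CAL, and 100.2, 92.5, 102 and 77.6 in control. CAL lay above both other groups without overlap, by a margin under 1 CPM at its lowest library over CAL_Dll4i replicate 2. In TPM that gap closed, with CAL_Dll4i replicate 2 at 46.7 and CAL replicate 2 at 45.3. CAL was 1.34-fold of control (1.12 to 1.62; log2 0.43 ± 0.12; edgeR adjusted p = 0.191; DESeq2 adjusted p = 0.0372), and CAL_Dll4i 0.764-fold of CAL (0.635 to 0.919; edgeR adjusted p = 0.659; DESeq2 adjusted p = 0.298).

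Gpam, the mitochondrial acyltransferase of the first step, had 46.0, 51.8, 57.6 and 39.0 CPM in CAL_Dll4i, 62.3, 55.3, 51.1 and 75.1 in CAL, and 44.2, 37.5, 52.8 and 39.7 in control. The ranges overlapped in all pairs, in CAL against control only through CAL replicate 3 and control replicate 3. CAL was 1.40-fold of control (1.11 to 1.76; edgeR adjusted p = 0.207; DESeq2 adjusted p = 0.0501), and CAL_Dll4i was 0.797-fold of CAL (0.635 to 1.00; edgeR adjusted p = 0.671). Agpat2, which adds the next chain and whose loss causes lipodystrophy in people and mice, had 18.5, 28.9, 27.5 and 21.9 CPM in CAL_Dll4i, 26.0, 29.0, 40.9 and 42.7 in CAL, and 33.6, 23.8, 36.4 and 16.7 in control. CAL replicates 3 and 4 were the highest, while CAL replicates 1 and 2 lay among the other groups. The estimates were 1.26-fold for CAL against control (0.854 to 1.84; edgeR adjusted p = 0.582) and 0.698-fold for CAL_Dll4i against CAL (0.475 to 1.03; edgeR adjusted p = 0.687).

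Gpd1, the glycerol 3-phosphate dehydrogenase of the cytosol, had 33.2, 55.9, 57.1 and 47.2 CPM in CAL_Dll4i, 77.2, 62.7, 71.9 and 88.3 in CAL, and 71.7, 38.8, 75.4 and 17.3 in control. All CAL_Dll4i libraries lay below all CAL libraries, and control replicates 1 and 3 lay inside the CAL range. CAL_Dll4i was 0.644-fold of CAL (0.359 to 1.16; edgeR adjusted p = 0.744), and CAL 1.48-fold of control (0.824 to 2.65; edgeR adjusted p = 0.527). An annotated antisense gene covers 13.0% of its exon bases. With no strand of counting named in the labels, reads of the pair cannot be told apart; the same holds for Adrb3 (24.9% of exon bases), Lipe (15.6%), Mgll (3.29%) and, through the protein-coding gene Egfl7, Agpat2 (3.01%).

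On the lipolysis side, Adrb3 was the scarcest and most variable. It had 9.40, 9.91, 16.9 and 7.02 CPM in CAL_Dll4i, 19.0, 12.2, 15.4 and 34.4 in CAL, and 12.7, 6.26, 15.2 and 2.72 in control. CAL replicate 4 stood far above the other libraries, and CAL replicates 2 and 3 lay within the range of the other groups. CAL was 2.20-fold of control (1.00 to 4.83; log2 1.14 ± 0.51; edgeR adjusted p = 0.343), and without CAL replicate 4 and control replicate 4 the log2 value was 0.45 (edgeR adjusted p = 0.668). CAL_Dll4i was 0.534-fold of CAL (0.244 to 1.17; edgeR adjusted p = 0.724). Pde3b, which acts against the receptor by degrading cyclic AMP, had the smallest ratio of highest to lowest library of the 10, 1.55-fold. It had 118, 138, 157 and 139 CPM in CAL_Dll4i, 156, 139, 149.5 and 178 in CAL, and 148, 117, 139 and 115 in control. Its groups overlapped in all pairs, with estimates of 1.20-fold for CAL against control (1.02 to 1.41; edgeR adjusted p = 0.293) and 0.886-fold for CAL_Dll4i against CAL (0.754 to 1.04; edgeR adjusted p = 0.744).

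Mgll had the smallest p of the 10 in CAL against control. Its levels were 60.8, 64.7, 83.6 and 54.7 CPM in CAL_Dll4i, 88.0, 71.1, 85.6 and 107 in CAL, and 65.2, 51.8, 60.4 and 42.3 in control. No CAL library was as low as any control, and CAL_Dll4i replicate 3 lay inside the CAL range. That library held muscle RNA, as did CAL replicates 1 and 2, of which replicate 2 was the lowest of CAL. The part of muscle RNA in these levels was not tested. CAL was 1.60-fold of control (1.24 to 2.07; log2 0.68 ± 0.17; edgeR adjusted p = 0.166; DESeq2 adjusted p = 0.00690), and CAL_Dll4i was 0.749-fold of CAL (0.582 to 0.965; edgeR adjusted p = 0.659).

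Lipe had 105, 123, 125 and 84.3 CPM in CAL_Dll4i, 183, 137, 136 and 234 in CAL, and 125, 78.8, 137 and 55.0 in control. CAL_Dll4i lay wholly below CAL, and control replicate 3 reached the lower end of the CAL range. CAL was 1.74-fold of control (1.12 to 2.71; log2 0.80 ± 0.29; edgeR adjusted p = 0.256), and CAL_Dll4i was 0.634-fold of CAL (0.409 to 0.983; edgeR adjusted p = 0.669).

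These counts at an unadjusted p moved with single libraries and tools, and the share of all genes moved too. In CAL against control, 3 of the 10 were higher at that limit without CAL replicate 4 (6.10% of all genes higher) and likewise without control replicate 2 (5.18%), 4 without CAL replicate 1 (5.01%) and 5 without control replicate 4 (5.82%). The count was 7 without control replicate 1 (7.75%), control replicate 3 (6.32%) or CAL replicate 2 (6.58%), and 9 by voom (8.67%). It was 2 without CAL replicate 4 and control replicate 4 together (4.92%), a setting chosen after the data were seen, in which the median log2 fold change was 0.28. In that setting Dgat1 stood at -0.02 and Agpat2 at 0.03, against 0.78 for Dgat2 and 0.46 for Mgll. In CAL_Dll4i against CAL the count of lower genes was 1 without CAL replicate 4 (1.40% of all genes lower) and without CAL_Dll4i replicate 1 (2.63%), 2 (2.50%) or 4 (1.45%). It was 5 without CAL replicate 2 (4.26%) or CAL_Dll4i replicate 3 (4.22%), 6 without the 3 libraries with muscle RNA (4.59%), 7 with only these 2 groups fitted (3.73%) and 8 by voom (5.08%). Without the libraries with muscle RNA, CAL kept only replicates 3 and 4, the latter its highest for all 10 genes.

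The adipocyte markers differed in the same direction as the 10 genes in CAL against control and in CAL_Dll4i against CAL. All 12 had higher estimates in CAL than in control (median log2 1.01). By edgeR 11 had an unadjusted p under 0.05, beside 7.01% of all genes higher at that limit. After adjustment edgeR called 0 of the 12 (0.00539% of all genes) and DESeq2 2 (2.07% of its genes higher). All 12 had lower estimates in CAL_Dll4i than in CAL (median -0.68), with 0 at an unadjusted p under 0.05 (2.95% of all genes lower). In CAL_Dll4i against control all 12 had higher estimates (median 0.36), where 7 of the 10 genes did. By edgeR 1 of the 12 was higher there at an unadjusted p under 0.05, beside 3.86% of all genes. The 12 markers took 0.120% to 0.168% of counts in CAL_Dll4i, 0.170% to 0.253% in CAL and 0.0723% to 0.167% in control. Markers of keratinocytes mostly moved the other way in CAL against control and in CAL_Dll4i against CAL. Of the 4 measured, 1 had a higher and 3 a lower estimate in CAL against control (median log2 -2.05). In CAL_Dll4i against CAL 3 had a higher and 1 a lower estimate (median 3.10), with 0 at an unadjusted p under 0.05 in both. In CAL_Dll4i against control all 4 keratinocyte markers had higher estimates (median 0.99), with 0 at that limit. Their sum was 469 CPM in CAL_Dll4i replicate 1, 211 in CAL_Dll4i replicate 4, 139 in control replicate 2 and 243 in control replicate 4, the 4 libraries in which the mean of the 10 genes' centred log2 CPM was lowest (-0.36, -0.34, -0.44 and -0.96). It was 159 CPM in CAL_Dll4i replicate 2, where that mean was 0.03, and at most 75.0 in the other libraries. The part of skin RNA in the levels of the 10 genes was not tested. Each of the 10 genes was also expressed per 100 counts of the 12 adipocyte markers, which include none of the 10.

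On this scale Lipe had 6.73 to 7.78 counts per 100 marker counts in CAL_Dll4i, 7.77 to 9.33 in CAL and 7.75 to 9.13 in control. Its highest and lowest library differed 1.38-fold, against 4.25-fold in CPM. The same ratio narrowed to 3.55-fold for Adrb3 (12.6-fold in CPM), 2.96-fold for Dgat2 (10.5-fold), 2.14-fold for Gpd1 (5.10-fold), 1.63-fold for Mgll (2.54-fold) and 2.02-fold for Agpat2 (2.56-fold). For Gpam (1.94-fold and 2.00-fold) and Lpin1 (2.00-fold on both scales) it barely moved. For Dgat1 it widened to 2.38-fold, against 1.64-fold in CPM, and for Pde3b to 2.29-fold, against 1.55-fold. The denominator itself ran from 0.0723% of counts in control replicate 4 to 0.253% in CAL replicate 4. A gene with a steady CPM therefore widens on this scale. How many of all genes narrowed or widened was not counted.

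**Figure D3:**
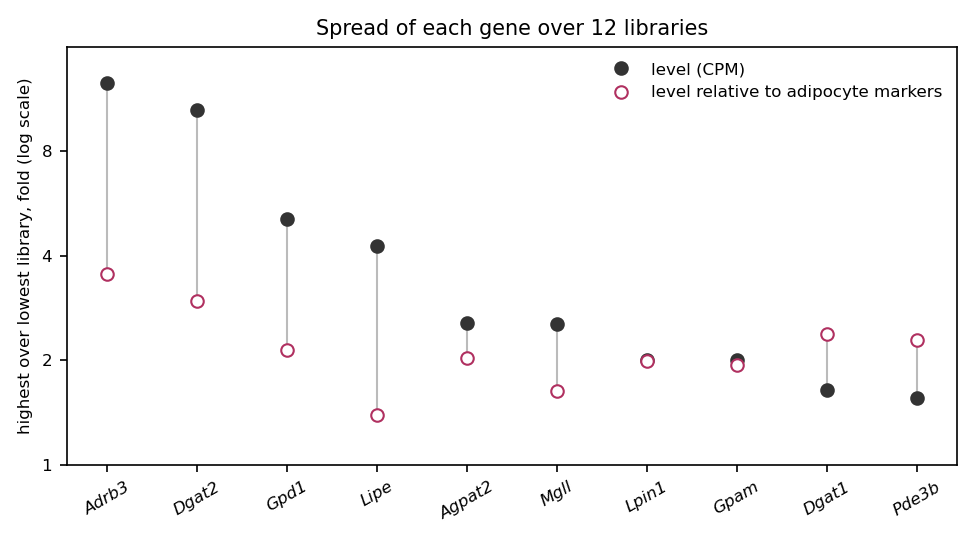
Ratio of the highest to the lowest of the 12 libraries (fold, log axis) for each gene, as CPM (filled) and per adipocyte marker count (open). The open point lies below the filled one for Adrb3, Dgat2, Gpd1, Lipe, Mgll and Agpat2 and above it for Dgat1 and Pde3b. How many of all genes narrow or widen was not counted.

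Relative to the markers, CAL and control libraries did not overlap for Dgat1 alone among the 10, at 2.86 to 3.61 counts per 100 marker counts in CAL against 4.20 to 6.80 in control, lower in CAL, as were 39.9% of all genes on this scale (0.172% were higher). Between CAL_Dll4i and CAL only Dgat2 did not overlap, at 2.18 to 4.57 against 4.80 to 5.70, lower in CAL_Dll4i, where 0.0701% of all genes were lower and 12.5% higher. Dgat2 had 2.18, 4.57, 4.18 and 3.26 in CAL_Dll4i replicates 1 to 4, 5.40, 4.94, 4.80 and 5.70 in CAL, and 5.14, 2.93, 3.97 and 1.93 in control, so the gap between CAL_Dll4i and CAL was small beside the range within CAL_Dll4i, and control replicate 1 lay inside the CAL range. With Adipoq and Cidec alone as the denominator Dgat2 overlapped between CAL_Dll4i and CAL, and Pde3b alone did not, higher in CAL_Dll4i as were 19.6% of all genes. Between CAL_Dll4i and control, Agpat2 (1.37 to 1.75 against 2.21 to 2.46) and Dgat1 (3.16 to 4.14 against 4.20 to 6.80) did not overlap, both lower in CAL_Dll4i, beside 1.72% of all genes lower and 0.0755% higher. These are descriptions without a test. The denominator, the markers' sum, was lowest in control replicate 4.

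Ratios between members within a library do not depend on library size. Dgat2 over Dgat1, in TPM, was 0.444, 1.22, 0.992 and 0.747 in CAL_Dll4i replicates 1 to 4, 1.61, 1.38, 1.14 and 1.62 in CAL, and 1.05, 0.469, 0.820 and 0.244 in control. All 4 CAL libraries had more Dgat2 than Dgat1 by this measure, above all 4 controls, while CAL_Dll4i overlapped with both. The means were 0.851 ± 0.332 in CAL_Dll4i, 1.44 ± 0.227 in CAL and 0.645 ± 0.357 in control (SD, n = 4 each). Adrb3 over Pde3b was 0.138 ± 0.0425 in CAL_Dll4i, 0.223 ± 0.0823 in CAL and 0.120 ± 0.0660 in control. Lipe over Mgll was 1.90 ± 0.224, 2.15 ± 0.294 and 2.03 ± 0.558 in the same order. Gpd1 over Gpam was 2.14 ± 0.445, 2.65 ± 0.260 and 2.41 ± 1.11, and Gpam over Agpat2 was 0.521 ± 0.0875, 0.469 ± 0.123 and 0.432 ± 0.131. All groups overlapped for each of these. How many other gene pairs separate CAL from control as Dgat2 over Dgat1 did was not counted.

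The 6 synthesis genes were also summed in TPM and set over the sum of Lipe and Mgll. The log2 of this ratio was 0.72, 1.07, 0.92 and 1.11 in CAL_Dll4i, 0.82, 0.98, 1.07 and 0.84 in CAL, and 1.12, 1.17, 1.15 and 1.13 in control. Every CAL and every CAL_Dll4i library lay below every control library, the nearest being CAL_Dll4i replicate 4 at 1.11 and control replicate 1 at 1.12. How many other ratios of gene sums separate the groups in this way was not counted. The means differed by -0.22 for CAL against control, 0.03 for CAL_Dll4i against CAL and -0.19 for CAL_Dll4i against control, with SDs of 0.18 in CAL_Dll4i, 0.12 in CAL and 0.02 in control. On summed CPM, which weighs long transcripts more, CAL_Dll4i (0.68 to 1.05) and control (0.99 to 1.13) overlapped, and CAL (0.77 to 0.96) did not overlap with control.

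**Figure D4:**
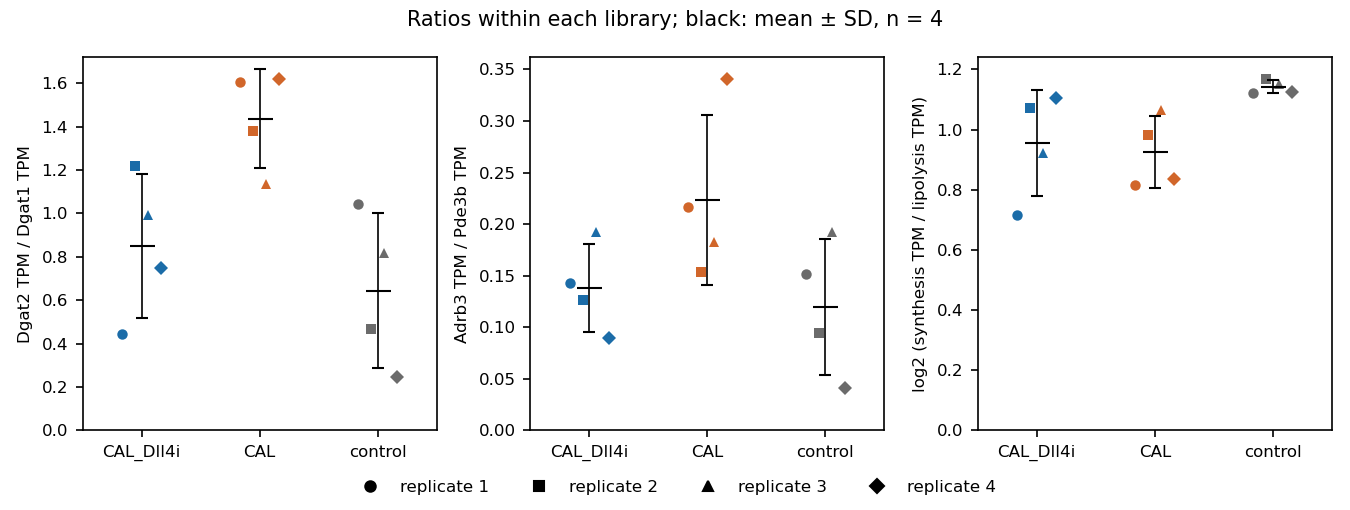
Ratios of members within each of the 12 libraries: Dgat2 over Dgat1, Adrb3 over Pde3b, and the log2 of summed synthesis over summed lipolysis TPM; symbols are libraries by replicate number and black marks the mean ± SD (n = 4). CAL lies above control without overlap in the first panel and below it in the last.

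The genes outside the 10 whose pattern over the 12 libraries was most like the members' mean were Tspan12, Cdkn2c, Abcd2, Ghr and Mmd. Likeness was the root mean square difference between a gene's log2 CPM and the mean of the 10 members' log2 CPM, each centred over the 12 libraries: 0.0929, 0.0954, 0.101, 0.104 and 0.107 for these 5, with a median of 0.479 over the 18541 genes outside the 10. Among the members Lipe was nearest to their own mean (0.135) and Dgat2 farthest (0.502). Ghr, the growth hormone receptor, had 151, 183, 204 and 159 CPM in CAL_Dll4i, 244, 181, 196 and 308 in CAL, and 185, 134, 197 and 107 in control. CAL replicate 4 was highest and control replicate 4 lowest, as for 8 of the 10 members. The 5 genes were chosen by their likeness to the members, so a shared pattern follows from the choice.

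Of the rest of the synthesis pathway, 17 of 20 listed genes were measured, and 7 had higher and 10 lower estimates in CAL against control (median -0.04; 2 higher and 3 lower at an unadjusted p under 0.05; edgeR called 0 after adjustment). Their split thus differed from that of the 10, which is a description of these lists and was not tested. For this list and those below, the shares of all genes at that limit were 7.01% higher and 7.57% lower. DESeq2 called 2.07% of its genes higher and 1.68% lower. The 3 genes named from each list had its smallest p in CAL against control. Their distance from 0 in that comparison follows from that choice. Pck1, the enzyme that feeds glycerol 3-phosphate from pyruvate in fat cells, had 56.3, 75.8, 73.4 and 57.3 CPM in CAL_Dll4i, 95.7, 82.2, 88.2 and 154 in CAL, and 52.6, 27.6, 67.6 and 19.9 in control. CAL lay above both other groups, at 2.51-fold of control (1.45 to 4.35; edgeR adjusted p = 0.185; DESeq2 adjusted p = 0.0217), and CAL_Dll4i was 0.625-fold of CAL (0.363 to 1.08; edgeR adjusted p = 0.693). Plpp2, a lipid phosphate phosphatase, had a lower estimate in CAL than in control (10.9 ± 1.04 and 13.8 ± 1.10 CPM, SD, n = 4 each; 0.790-fold; edgeR adjusted p = 0.196; DESeq2 adjusted p = 0.0465), as did the acyltransferase Agpat4 (31.5 ± 2.93 and 38.5 ± 3.38 CPM; 0.819-fold; edgeR adjusted p = 0.223).

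Among 21 other lipolysis genes, which include further receptors, adenylyl cyclases, protein kinase A subunits and Pnpla2, 16 had higher and 5 lower estimates in CAL against control (median 0.17; 7 and 1 at an unadjusted p under 0.05; 0 called by edgeR). The 3 with the smallest p were Adrb1, Adcy9 and Prkar2a. Adrb1, the β1-adrenergic receptor, stood at 0.349 ± 0.0780 CPM in CAL_Dll4i, 0.586 ± 0.116 in CAL and 0.300 ± 0.0459 in control, so its per-length level (0.461 TPM in CAL) was far below that of Adrb3 (16.4 TPM in CAL). CAL was 1.95-fold of control for Adrb1 (1.39 to 2.75; edgeR adjusted p = 0.157; DESeq2 adjusted p = 0.0521). This estimate rests on few reads, 25 to 47 counts in the CAL libraries and 14 to 22 in control. Adcy9, an adenylyl cyclase, was at 56.3 ± 9.05 CPM in CAL_Dll4i, 58.4 ± 4.13 in CAL and 45.8 ± 2.44 in control, 1.28-fold in CAL against control (edgeR adjusted p = 0.194; DESeq2 adjusted p = 0.0422). Prkar2a, a regulatory subunit of protein kinase A, differed less (70.8 ± 8.66 CPM in CAL and 59.9 ± 3.87 in control; 1.18-fold; edgeR adjusted p = 0.226).

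Of 19 genes that restrain lipolysis, which include insulin signalling, inhibitory receptors and phosphodiesterases, 12 had higher and 7 lower estimates in CAL against control (median 0.12; 8 and 5 at an unadjusted p under 0.05; 0 called by edgeR). Adora1, the inhibitory adenosine A1 receptor of adipocytes, had 4.74, 5.97, 5.11 and 5.02 CPM in CAL_Dll4i, 6.32, 8.08, 7.75 and 10.8 in CAL, and 3.57, 2.09, 6.17 and 2.01 in control. CAL lay above both other groups, at 2.38-fold of control (1.47 to 3.86; edgeR adjusted p = 0.166; DESeq2 adjusted p = 0.00691; voom adjusted p = 0.0331). The estimates of the phosphodiesterases Pde3a and Pde4d were lower in CAL than in control. Pde3a, the relative of Pde3b, stood at 7.47 ± 0.788 CPM in CAL_Dll4i, 5.81 ± 0.824 in CAL and 7.68 ± 0.444 in control, 0.757-fold in CAL against control (edgeR adjusted p = 0.194; DESeq2 adjusted p = 0.0323) and 1.29-fold in CAL_Dll4i against CAL (edgeR adjusted p = 0.659). Pde4d stood at 48.1 ± 3.21, 40.6 ± 4.19 and 50.01 ± 4.98 CPM in CAL_Dll4i, CAL and control, 0.811-fold in CAL against control (edgeR adjusted p = 0.198; DESeq2 adjusted p = 0.0572).

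For the supply of fatty acids, 11 genes split into 5 higher and 6 lower estimates in CAL against control (median -0.02; 2 and 0 at an unadjusted p under 0.05; 0 called by edgeR). Lpl, lipoprotein lipase, which frees fatty acids from circulating triglyceride, had 878, 1016, 979 and 1019 CPM in CAL_Dll4i, 1003, 1006, 999 and 989 in CAL, and 830.5, 823, 931 and 766 in control. CAL was 1.19-fold of control without overlap (1.08 to 1.31; edgeR adjusted p = 0.166; DESeq2 adjusted p = 0.0162; voom adjusted p = 0.0436), and CAL_Dll4i was 0.974-fold of CAL (0.884 to 1.07; edgeR adjusted p = 0.920). Slc27a1, a fatty acid transporter, was 1.20-fold (edgeR adjusted p = 0.177; DESeq2 adjusted p = 0.0373), and Acsl1, the acyl-CoA synthetase, 1.39-fold (edgeR adjusted p = 0.360; DESeq2 adjusted p = 0.213), in CAL against control.

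Of 11 transcription regulators of these pathways 9 had higher and 2 lower estimates in CAL against control (median 0.35; 7 and 1 at an unadjusted p under 0.05; 0 called by edgeR and 4 higher by DESeq2). Ppargc1a, a coactivator of oxidative metabolism, had 3.14, 3.91, 7.38 and 2.72 CPM in CAL_Dll4i, 8.07, 4.63, 4.36 and 8.70 in CAL, and 3.23, 2.28, 1.67 and 2.44 in control. CAL was 2.68-fold of control without overlap (1.58 to 4.55; edgeR adjusted p = 0.166; DESeq2 adjusted p = 0.00460). Ppargc1a is also expressed in muscle, and its highest CAL_Dll4i library, replicate 3, was a library with muscle RNA. CAL replicates 1 (8.07 CPM) and 2 (4.63 CPM) held muscle RNA too. The log2 fold change for CAL against control was 1.42 with all libraries and 1.44 without the 3 that held muscle RNA. Of CAL, the latter fit kept replicates 3 and 4 alone (4.36 and 8.70 CPM). The part of muscle RNA in the levels of Ppargc1a was not tested. Klf15 stood at 2.84 ± 0.895 CPM in CAL_Dll4i, 3.73 ± 0.949 in CAL and 1.88 ± 0.549 in control, 1.98-fold in CAL against control (edgeR adjusted p = 0.178; DESeq2 adjusted p = 0.0223). Nr1h3, the liver X receptor α, stood at 35.0 ± 2.57, 45.5 ± 10.6 and 33.1 ± 3.00 CPM in CAL_Dll4i, CAL and control, 1.38-fold in CAL against control (edgeR adjusted p = 0.195; DESeq2 adjusted p = 0.0426).

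**Figure D5:**
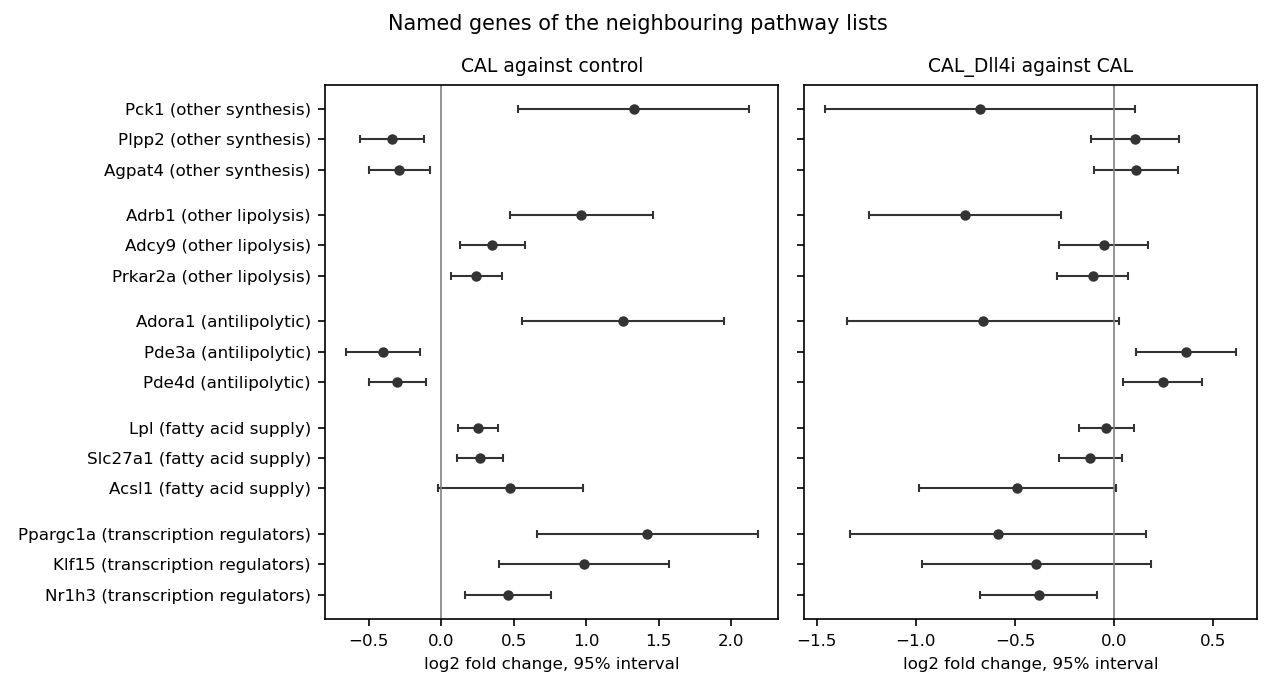
Log2 fold change (horizontal axis) with 95% interval for the 3 named genes of each of 5 neighbouring lists, in CAL against control and in CAL_Dll4i against CAL, which share the CAL libraries. The 3 genes are those of each list with the smallest p in CAL against control, so their distance from 0 in that panel follows from the choice. Pck1, Adora1 and Ppargc1a have the largest estimates in CAL against control, and Plpp2, Agpat4, Pde3a and Pde4d lie below 0 there.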

How the data were processed

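RNA-seq of 12 libraries (4 each in CAL_Dll4i, CAL and control, grouped by title) was deposited as a table of 19547 genes holding TPM, FPKM and estimated counts, per the file headers. Trizol RNA was turned into libraries by the SureSelectXT RNA Direct kit, per the labels' protocols. Reads were processed with HISAT2 and StringTie, and build mm10 is named, per the submitters' processing notes (versions and roles absent). The deposited estimated counts are whole and unscaled between libraries, so rounding changed 0 of them. The deposited TPM, scaled by the authors per transcript length, was used to compare genes within a library, and the deposited FPKM was not tested. No count is 0, and any change to low values before deposit is not stated in the labels.

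In R 4.3.3 with edgeR 4.0.16, counts were scaled by TMM, filtered with filterByExpr (minimum count 10) and fitted over all 12 libraries, and 18551 genes were tested by the quasi-likelihood test (robust) with Benjamini-Hochberg adjustment over all of them at 0.05. The standard error is the size of the log2 fold change over the root of F, and intervals are at 95%. The common biological coefficient of variation was 0.237. Where the text gives an edgeR adjusted p, it comes from this fit. Alternatives were upper-quartile or RLE scaling, no filter, 1 CPM in 4 libraries, DESeq2 1.42.0, limma 3.58.1 voom with sample weights, the 2 groups of a comparison alone, a replicate block, libraries with Acta1 above 10 CPM left out, and each library left out. The code was tested on simulated data. Figures were drawn in Python 3.11.15 with matplotlib 3.10.9.

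The 10 genes, the gene lists and the tests were chosen with earlier results of these data known. Genes named outside the 10 are the 3 with the smallest p in CAL against control of each of 5 lists, the 5 most like the members' mean log2 CPM (prior count 2), and Acta1; the marker lists hold genes commonly used for each cell type. Pairs of libraries with identical counts numbered 0.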

Additional observations from a re-analysis of the deposited data

Results flagged for a closer look

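Of 120 groups of 4 values tested, 2 held a library whose gap to the nearest other, as a share of the group's range, exceeded Dixon's 95% critical value, where chance gives about 1 in 20. Acta1, the skeletal muscle actin, was at 127 CPM (126.632) in CAL_Dll4i replicate 3 and at 1.67 to 2.91 in the other libraries of that group. Prkar2a, a regulatory subunit of protein kinase A, was at 70.4 CPM (70.3632) in CAL_Dll4i replicate 2 and at 63.9 to 64.4 in the others. None of the 10 triglyceride genes met this limit in any of the 3 groups, CAL replicate 4 and control replicate 4 included.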

How the results depend on the processing

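Each of the 10 genes was estimated in 18 alternative fits in CAL against control and in 17 in each other comparison. Taken over genes and fits, 179 of 180 estimates kept their direction in CAL against control. In CAL_Dll4i against CAL 170 of 170 did, and in CAL_Dll4i against control 157 of 170. The fits share most of their libraries, so these estimates are not independent. With CAL replicate 4 and control replicate 4 left out together, Dgat1 stood at -0.024 in CAL against control. For all genes, edgeR called 1 in that comparison, DESeq2 633, voom 88, and 0 with only the 2 groups compared, without the libraries with muscle RNA or without both libraries just named; leaving out single libraries gave 0 to 6. DESeq2 called 2 of the 10 there, against 0 by edgeR. It called 1 gene in CAL_Dll4i against CAL and 61 in CAL_Dll4i against control, where edgeR called 0. Whether equal replicate numbers mark paired samples is not known. Correlations of same-numbered deviations ran from -0.24 to 0.12, -0.39 to 0.0030 and -0.19 to 0.14 in the 3 comparisons. They are too few to exclude a pairing. With the replicate block edgeR called 1, 0 and 0 genes, none of them among the 10.

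In CAL_Dll4i against control, Gpd1 was at 0.33 by voom and 0.025 with the replicate block, and Acsl1 at 0.0066 with upper-quartile scaling, 0.15 by voom and 0.036 with the replicate block. Without the libraries with muscle RNA, Adrb3 was at -0.070, Tspan12 at -0.068 and Cdkn2c at -0.033 there. In CAL_Dll4i against CAL, Acta1 was at -0.76 by voom and -0.58 with the replicate block, and Prkar2a at 0.051 without the libraries with muscle RNA. Leaving out single libraries gave, in CAL_Dll4i against control, -0.041 to 0.098 for Lpin1, -0.16 to 0.023 for Dgat1, -0.016 to 0.59 for Dgat2, -0.36 to 0.18 for Gpd1, -0.055 to 0.34 for Lipe, -0.075 to 0.58 for Adrb3, -0.20 to 0.17 for Acsl1, -0.13 to 0.29 for Tspan12, -0.10 to 0.26 for Cdkn2c, -0.023 to 0.24 for Abcd2, -0.066 to 0.24 for Mmd and -0.11 to 0.0036 for Pde3a. In CAL_Dll4i against CAL it gave -3.59 to 1.73 for Acta1, -0.13 to 0.043 for Adcy9 and -0.065 to 0.0078 for Lpl. Relative to adipocyte markers, the members without overlap in CAL against control numbered 1 (39.9% of all genes lower) and 2 without the libraries with muscle RNA (55.8%). With single libraries left out they numbered 1 to 5, the 5 without control replicate 3. In those settings 40% to 76.4% of all genes were lower and 0.199% to 0.302% higher. In CAL_Dll4i against CAL they numbered 1 (Dgat2 lower, with 12.5% of all genes higher and 0.0701% lower). Without the libraries with muscle RNA they numbered 3 (1 higher and 2 lower, beside 55.9% and 0.814%). With single libraries left out they numbered 1 to 4, the 4 without CAL replicate 3 (2 higher and 2 lower, beside 24.3% and 0.253%). In those settings 12.7% to 36.5% of all genes were higher and 0.113% to 0.345% lower. In CAL_Dll4i against control they numbered 2 (1.72% of all genes lower) and 1 with Adipoq and Cidec as the denominator (0.776%). With single libraries left out they numbered 2 to 3, all lower, and 1.82% to 18% of all genes were lower. The causes of these shifts were not tested. The lowest count of any of the 10 in a library was 194, so counting error is small beside the spread between libraries.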
